A study of Homo sapiens with 11 samples.

Results

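The genes described here make cholesterol and fatty acids, or control the genes that do. The list held 34 genes: 4 regulators, 19 of the sterol branch and 11 of the fatty acid branch. Members were the probe sets whose array annotation gives exactly 1 symbol from the list. Such a probe set was found for 30 members, each with 1 probe set, among 22395 genes on the array. The test was run on 29 of them, out of 15865 genes, after a filter on dim probe sets: a gene stayed if 2 or more of the 11 arrays, in whatever group, reached 2.53. That is the log2 value at the middle of all probe set means. The 29 were 4 regulators, 17 sterol branch genes and 8 fatty acid branch genes. THRSP, a nuclear protein linked to lipogenesis, lay between 2.09 and 2.57 and did not pass the filter. CYP51A1 and FADS1 share their probe sets with other genes and were left out, and FDFT1 and ACSL3 were not analysed here.

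Expression was measured in MDA-MB-468, a human line derived from the pleural effusion of a triple-negative breast cancer, on GeneChip Human Gene 2.1 ST arrays. The 4 groups were control (untreated cells, 3 arrays), tumour necrosis factor (TNF, an inflammatory cytokine) at 40 ng/ml (3 arrays), apigenin (a plant flavone) at 40 µM (2 arrays, replicates 1 and 2), and TNF at 40 ng/ml plus apigenin at 40 µM (3 arrays). Treatment lasted 24 h. The agents were prepared in a buffered salt solution at doses described as sub-lethal, and the labels name no vehicle for the controls. The labels do not say whether replicates were separate cultures, so the spread behind each p-value is that between these arrays and may be technical. RNA came from whole cultures, so fewer cells expressing a gene and less RNA per cell cannot be told apart.

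Cells build cholesterol from acetyl-CoA through mevalonate, squalene and lanosterol, and fatty acids from acetyl-CoA through malonyl-CoA. SREBP transcription factors switch on the enzymes of both routes, SREBP-2 (from SREBF2) mainly the sterol enzymes and SREBP-1 (from SREBF1) mainly the fatty acid enzymes. SCAP escorts the SREBP precursors to the Golgi for cleavage when sterols run low, and INSIG proteins hold SCAP back when sterols are plentiful.

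Epithelial markers lay above the probe set median (7 of 7, means from 4.18 to 10.79). ESR1 and PGR encode hormone receptors that triple-negative tumours do not express, and both lay below that median (2.35 and 1.49). Epithelial array means were 7.38 to 7.55 in control, 7.12 to 7.42 with TNF, 7.09 to 7.29 with apigenin and 7.02 to 7.24 with both agents, and the last 2 groups did not overlap with control. KRT19 was called lower with TNF plus apigenin against control (-0.82, limma adjusted p = 0.0133). Array apigenin 1 was unlike the rest, with a median of 3.89 over tested genes and an interquartile range of 2.4, against 4.08 to 4.32 and 2.63 to 2.91 on the other 10 arrays. Arrays within a group correlated at 0.969 to 0.987. Of markers of other cell types, 2 of 5 measured for leukocytes, 1 of 4 for fibroblasts, 1 of 4 for adipocytes and 2 of 4 for hepatocytes had means above 2.53. Those above it were CSF1R (4.27), CD79A (3.3), COL1A1 (3.34), PLIN1 (2.67), TTR (3.01) and APOA1 (2.7), and those below it included PTPRC (1.46), COL1A2 (2.11), ADIPOQ (1.81) and CYP3A4 (1.59). The 3 endothelial markers measured had array means of 3.09 to 3.32 in control, 3.33 to 3.61 with TNF, 2.25 to 2.45 with apigenin and 2.74 to 2.94 with both agents, and 2 of the 3 (CDH5 and KDR) lay above 2.53 on average while VWF lay at 1.87. CDH5 was called higher with TNF (0.92, limma adjusted p = 0.0448) and lower with apigenin (-1.03, adjusted p = 0.0178) and with TNF plus apigenin against TNF (-1.25, adjusted p = 0.00451), and KDR was called lower with apigenin (-1.32, adjusted p = 0.0071). The part of the marker differences in the results was not tested. Changes without array apigenin 1 are given for many members below.

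Most lipid synthesis genes passed the test in no comparison. MVK, a kinase of the mevalonate pathway, fell with apigenin alone and with TNF plus apigenin, and SREBF1 and FASN, the lipogenic transcription factor and the fatty acid synthase, fell with TNF plus apigenin, each against control. At an adjusted p under 0.05 (limma, Benjamini-Hochberg adjustment over all genes tested), 0 of 29 members were called for TNF against control, where 0.7% of all genes were. For apigenin against control 1 was called, as lower (3.45% of members against 3.66% of all genes, or 3.44% lower), which is near the background. For TNF plus apigenin against control 3 were called, all lower (10.3% of members against 2.82% of all genes, or 1.78% lower). The background of this comparison moved with the processing. The genes called in all were 447, and 1233 after quantile normalization (4 members, MSMO1 added as higher). With weighted arrays they were 1197 (4 members, PMVK added as lower). The member count ranged from 0 to 4 over 20 alternatives. It was 0 without control 1, control 2, TNF plus apigenin 2 or TNF plus apigenin 3. The members were also chosen with earlier results of these data known. Limma called 0 members for TNF plus apigenin against TNF (1.07% of all genes), 0 when TNF plus apigenin was set against apigenin (0.574%) and 0 in the interaction, the TNF effect with apigenin minus that without it (0.0252%). All comparisons with control share the same 3 control arrays.

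At an unadjusted p under 0.05 limma counted 5 members for TNF, where 7.41% of all genes were counted. Of these 2 were higher (2.82% of all genes) and 3 lower (4.59%). It counted 7 members for apigenin, all lower, where 19.5% of all genes were counted and 17.5% as lower. For TNF plus apigenin against control it counted 9 (15.9% of all genes), 4 higher (7.15%) and 5 lower (8.79%). It counted 2 for TNF plus apigenin against TNF (11.1% of all genes), HSD17B7 as higher (5.93%) and MVK as lower (5.2%). It counted 5 against apigenin, all higher (15.7% of all genes, 14.1% as higher), and 1, MVK, for the interaction (8.16%). Arrays of the compared groups did not overlap in 6 members for TNF against control (13.3% of all genes), in 13 for apigenin (31.5%) and in 11 for TNF plus apigenin against control (20.1%). They did not overlap in 8 members for TNF plus apigenin against TNF (15.7%) and in 8 against apigenin (25.7%).

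**Figure D1:**
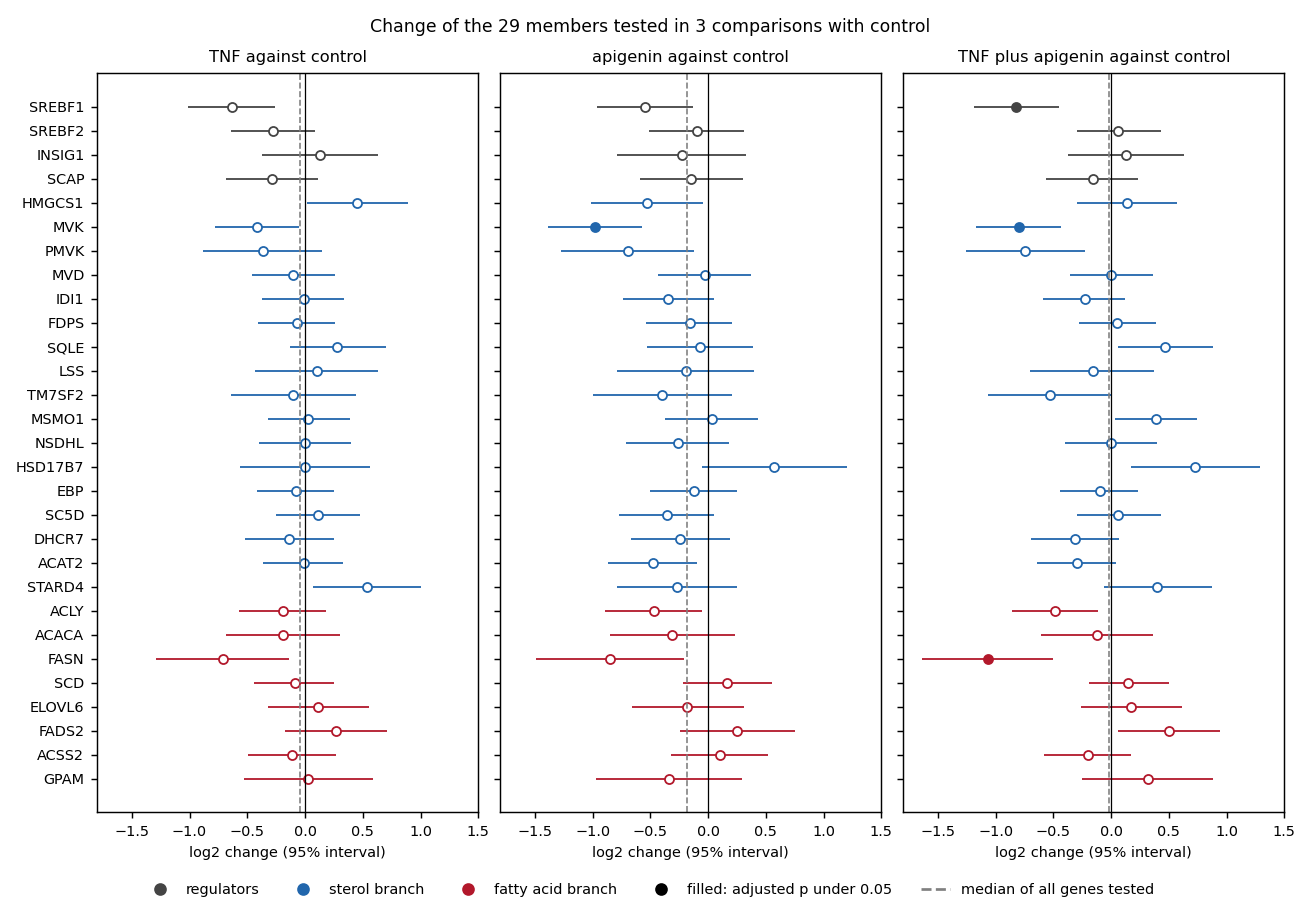
Log2 change (x axis) of the 29 members tested (rows) with 95% intervals from limma in 3 comparisons with control; colours mark regulators, sterol branch and fatty acid branch, filled points passed an adjusted p under 0.05, and the dashed line is the median of all genes tested. MVK is filled for apigenin (-0.98), and SREBF1 (-0.82), MVK (-0.8) and FASN (-1.07) are filled for TNF plus apigenin.

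SREBPs act on promoters together with the factors NF-Y and Sp1, so the members' promoters were searched for the letters these factors are known for. RefSeq promoters (GRCh38.p14, 250 bases before to 50 after the gene's start) were matched by symbol for 26 of the 29 members. SQLE, ACAT2 and FASN had no entry. Only the first entry listed for a symbol was read, so any other start of a gene was not searched. Both strands were read for the sterol regulatory element letters TCACCCCAC and the shorter CACCCCAC within them, the E-box CACGTG, the NF-Y box CCAAT and the Sp1 box GGGCGG. TCACCCCAC was in 1 of the 26 (3.85%), SREBF2, and in 0.43% of all 35116 promoters, and CACCCCAC was in the same single member and in 2.79% of all. CCAAT was in 19 members (73.1%), against 34.6% of all promoters and 35.9% of the 11717 promoters matched to genes tested. GGGCGG was in 24 (92.3%), against 45% and 65.5%. CACGTG was in 4 (15.4%: INSIG1, SCAP, LSS and SC5D), against 7.26% and 9.42%.

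The 250 bases before the start are shown for MVK and SREBF1, the called members with an entry, and for SREBF2, the member matching TCACCCCAC. They are MVK at chr12:109573544-109573793 on the plus strand, SREBF1 at chr17:17836987-17837236 on the minus strand and SREBF2 at chr22:41832855-41833104 on the plus strand. Capitals mark matches on either strand, so that ATTGG is CCAAT and CCGCCC is GGGCGG read on the other strand.
MVK: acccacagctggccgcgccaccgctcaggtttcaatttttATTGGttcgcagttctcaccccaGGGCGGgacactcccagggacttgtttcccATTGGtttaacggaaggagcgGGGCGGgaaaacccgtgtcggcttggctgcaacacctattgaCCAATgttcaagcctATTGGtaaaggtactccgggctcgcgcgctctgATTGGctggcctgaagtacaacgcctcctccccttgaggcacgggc
SREBF1: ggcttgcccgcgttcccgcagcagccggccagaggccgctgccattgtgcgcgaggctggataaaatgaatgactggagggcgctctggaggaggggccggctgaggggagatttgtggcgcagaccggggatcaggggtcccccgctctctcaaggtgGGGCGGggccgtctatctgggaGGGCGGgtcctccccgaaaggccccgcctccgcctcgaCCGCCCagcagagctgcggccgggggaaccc
SREBF2: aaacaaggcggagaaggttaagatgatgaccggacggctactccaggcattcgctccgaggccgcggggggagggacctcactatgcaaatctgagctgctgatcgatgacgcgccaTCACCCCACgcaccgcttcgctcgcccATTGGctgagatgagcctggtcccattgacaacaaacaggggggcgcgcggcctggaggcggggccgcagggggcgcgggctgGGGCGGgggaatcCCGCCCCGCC
MVK held CCAAT at 5 places, from -210 to -42 relative to the start, and GGGCGG at 2. The SREBF1 window, taken at 1 start of the gene, held GGGCGG at 3 places and no CCAAT. In SREBF2 TCACCCCAC lay at -133 to -125 and CCAAT at -106 to -102. The last 2 GGGCGG matches of SREBF2 share a base, and the later of them runs past the printed end. Such matches describe letters in the window, and binding was not measured. Only exact letters were searched, so a member without a match may still hold a variant of the sterol element.

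Among the 4 regulators SREBF1 was lower on every treated array than on any control array. It encodes SREBP-1, the main activator of fatty acid synthesis genes. Its log2 values were 4.21, 4.41 and 4.06 in control, 3.72, 3.68 and 3.38 with TNF, 3.83 and 3.53 with apigenin, and 3.27, 3.51 and 3.44 with both agents. No treated group overlapped with control, and the TNF and apigenin arrays overlapped with each other. The SREBF1 signal was low. Its mean over all arrays, 3.73, lay between those of COL1A1 (3.34) and CSF1R (4.27), markers of other cell types. The epithelial marker KRT8 averaged 4.18. SREBF1 fell with TNF plus apigenin from 4.23 ± 0.18 to 3.41 ± 0.12 (SD, n = 3 each), a log2 change of -0.82 (SE 0.17, 1.76-fold lower, limma adjusted p = 0.0199). Neither agent alone passed: TNF gave -0.63 (SE 0.17, adjusted p = 0.184) and apigenin -0.55 (SE 0.2, adjusted p = 0.134; -0.7 without apigenin 1). The call with both agents was lost without control 1 (adjusted p = 0.0721) or 2 (0.0737) and without TNF plus apigenin 1 (0.0763), 2 (0.0578) or 3 (0.0539), while the log2 change of SREBF1 stayed between -0.9 and -0.73.

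The other regulators passed no test. SREBF2, which encodes SREBP-2, the main activator of sterol synthesis genes, was 6.74, 6.66 and 6.55 in control, 6.53, 6.42 and 6.16 with TNF, 6.46 and 6.64 with apigenin, and 6.92, 6.69 and 6.53 with both agents. Its TNF arrays lay just below control (-0.28, 95% interval -0.64 to 0.09), and its arrays with both agents spanned the control arrays (0.06, interval -0.3 to 0.43). INSIG1, which retains SCAP and is itself a target of SREBPs, was 7.8, 7.84 and 8.03 in control, 8, 8.08 and 7.98 with TNF, 7.12 and 8.19 with apigenin, and 7.87, 8.32 and 7.88 with both. All controls lay between its 2 apigenin arrays, and its apigenin change of -0.23 became 0.3 without apigenin 1. SCAP, the escort of the SREBP precursors, was 5.39, 5.45 and 5.22 in control, 5.36, 5.03 and 4.82 with TNF, 5.06 and 5.36 with apigenin, and 5.22, 5.36 and 5 with both. Each treated group overlapped with control in SCAP.

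**Figure D2:**
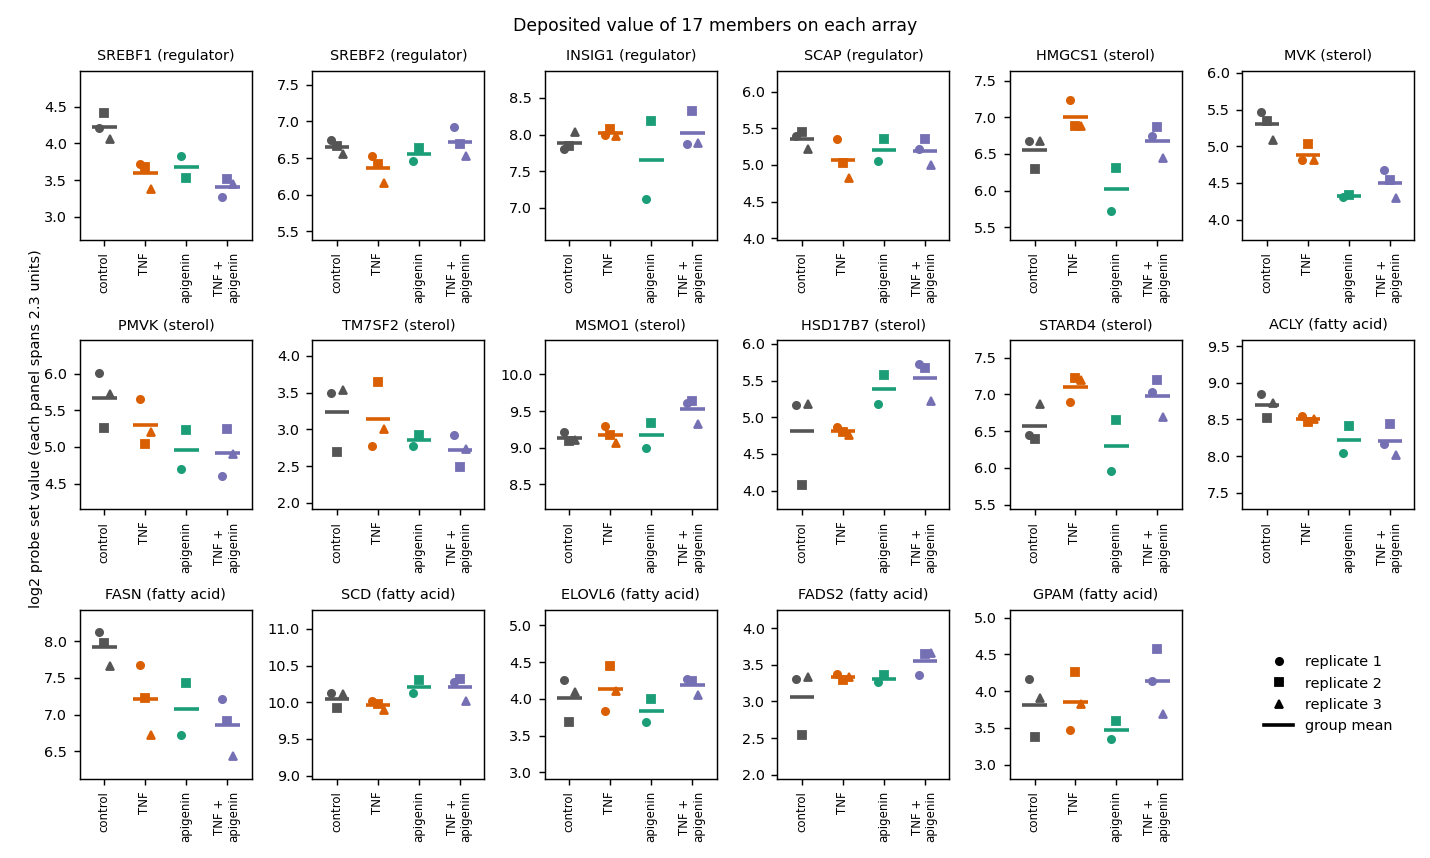
Log2 probe set values (y axis, each panel spanning 2.3 units) of the 4 regulators and 13 enzymes and carriers on the arrays of the 4 groups (x axis), with symbols for replicates 1 to 3 and lines for group means. MVK lies at 4.31 and 4.34 on the apigenin arrays, below all controls, and HSD17B7 has 1 control array, control 2, at 4.08.

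In the sterol branch MVK was the gene that passed. It encodes mevalonate kinase, which adds the first phosphate to mevalonate. Its values were 5.47, 5.35 and 5.08 in control, 4.81, 5.03 and 4.81 with TNF, 4.31 and 4.34 with apigenin, and 4.67, 4.54 and 4.29 with both agents. Controls were highest, TNF arrays came next, and the groups with apigenin lay below both and overlapped with each other. MVK fell with apigenin from 5.3 ± 0.2 (SD, n = 3) to 4.32 ± 0.02 (SD, n = 2), a log2 change of -0.98 (SE 0.19, 1.97-fold lower, limma adjusted p = 0.013). It fell with TNF plus apigenin to 4.5 ± 0.19 (SD, n = 3), a change of -0.8 (SE 0.17, 1.74-fold lower, limma adjusted p = 0.0209). TNF alone gave -0.42 (SE 0.17, adjusted p = 0.561) and apigenin added to TNF gave -0.38 (SE 0.17, adjusted p = 0.417), and neither passed. The TNF effect on MVK was -0.42 without apigenin and 0.18 with it, an interaction of 0.59 (interval 0.04 to 1.15, adjusted p = 0.604) that did not pass.

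MVK was nearly equal on both apigenin arrays, and its change was -0.96 without apigenin 1 and -0.99 without apigenin 2. The call was lost without apigenin 1 (adjusted p = 0.0944), without control 1 (-0.89, adjusted p = 0.0668), with weighted arrays (-0.92, adjusted p = 0.0803) and with only the compared groups in the fit (adjusted p = 0.0756). For TNF plus apigenin the MVK call was lost without control 1 (adjusted p = 0.112) or 2 (0.0601) and without TNF plus apigenin 2 (0.0692) or 3 (0.0836). TNF arrays 1 and 3 held exactly the same deposited MVK value; equal values within a group occurred in 1 of 29 members and in 16.5% of the genes tested.

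The enzymes beside MVK in the pathway did not pass. HMGCS1, which makes HMG-CoA ahead of mevalonate, was 6.68, 6.3 and 6.68 in control, 7.24, 6.88 and 6.88 with TNF, 5.73 and 6.31 with apigenin, and 6.74, 6.87 and 6.44 with both agents. Its TNF arrays lay above all controls (0.45, interval 0.02 to 0.89, adjusted p = 0.646), and apigenin 2 met the lowest control (-0.53, adjusted p = 0.216; -0.23 without apigenin 1). PMVK, phosphomevalonate kinase, the step after MVK, was 6.01, 5.26 and 5.72 in control, 5.65, 5.04 and 5.2 with TNF, 4.7 and 5.23 with apigenin, and 4.6, 5.25 and 4.9 with both. Every PMVK value with apigenin lay below every control, but narrowly. Apigenin 2 at 5.23 and TNF plus apigenin 2 at 5.25 lay close to control 2 at 5.26. PMVK changed by -0.69 with apigenin (SE 0.27, adjusted p = 0.169; -0.43 without apigenin 1) and by -0.75 with both agents (SE 0.24, adjusted p = 0.126), and the latter passed with weighted arrays (-0.8, adjusted p = 0.0293). MVD and IDI1, which form the isoprene units, and FDPS, which joins them, changed by -0.03, -0.35 and -0.16 with apigenin, by -0.1, -0.01 and -0.07 with TNF, and by 0, -0.23 and 0.05 with both agents, and none passed. IDI1 was at -0.17 with apigenin when apigenin 1 was left out.

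Later sterol enzymes lay on both sides of control. HSD17B7, a ketoreductase acting on sterols after lanosterol, was 5.17, 4.08 and 5.18 in control, 4.87, 4.8 and 4.76 with TNF, 5.18 and 5.58 with apigenin, and 5.72, 5.67 and 5.22 with both agents. Its arrays with both agents lay above all TNF arrays and all controls. The log2 difference was 0.73 against TNF (SE 0.26, adjusted p = 0.277) and 0.73 against control (SE 0.26, adjusted p = 0.166). Without control 2 the HSD17B7 difference from control was 0.37 with both agents (adjusted p = 0.503) and 0.21 in place of 0.57 with apigenin, and the difference from TNF was 0.73 (adjusted p = 0.0779). MSMO1, a methyl sterol oxidase, was 9.22, 9.09 and 9.1 in control, 9.29, 9.17 and 9.06 with TNF, 9 and 9.34 with apigenin, and 9.61, 9.63 and 9.33 with both. Its arrays with both agents lay above all controls (0.39, interval 0.03 to 0.74, adjusted p = 0.271), which passed after quantile normalization (0.48, adjusted p = 0.0224). TM7SF2, a sterol reductase, was 3.5, 2.69 and 3.54 in control, 2.78, 3.64 and 3.01 with TNF, 2.78 and 2.92 with apigenin, and 2.92, 2.49 and 2.73 with both. Its groups overlapped at low values, from 2.49 to 3.64.

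Several carriers and entry enzymes separated by group without passing. STARD4, which moves cholesterol between membranes, was 6.45, 6.39 and 6.87 in control, 6.9, 7.22 and 7.2 with TNF, 5.96 and 6.65 with apigenin, and 7.03, 7.2 and 6.7 with both agents. Its TNF arrays lay above all controls (0.54, interval 0.07 to 1, adjusted p = 0.537), and its arrays with both agents lay above the apigenin arrays (0.67, interval 0.16 to 1.19, adjusted p = 0.207). Both separations were narrow. TNF 1 at 6.9 lay close to control 3 at 6.87, and TNF plus apigenin 3 at 6.7 lay close to apigenin 2 at 6.65. Apigenin 1 was lower, at 5.96. STARD4 changed by -0.27 with apigenin and by 0.07 without apigenin 1. SQLE, squalene epoxidase, was 7.74, 7.55 and 7.72 in control, 7.91, 7.91 and 8.04 with TNF, 7.3 and 7.9 with apigenin, and 8.05, 8.43 and 7.92 with both. Both groups given TNF lay above all SQLE controls, by 0.28 (interval -0.13 to 0.7) and 0.47 (interval 0.06 to 0.88, adjusted p = 0.245). ACAT2, which condenses acetyl-CoA at the entry of the pathway, was 8.32, 8.26 and 8.21 in control, 8.33, 8.32 and 8.08 with TNF, 7.72 and 7.83 with apigenin, and 8, 8.1 and 7.79 with both. Every ACAT2 array with apigenin lay below every control (-0.48, limma adjusted p = 0.149 for apigenin, and -0.3, adjusted p = 0.391 for both agents). DHCR7 separated from control in the same way. Such separation was common: apigenin and control arrays did not overlap in 13 of 29 members and in 31.5% of all genes, in either direction. LSS, NSDHL, EBP, SC5D and DHCR7, which carry squalene epoxide towards cholesterol, changed by -0.14 to 0.11 with TNF, by -0.36 to -0.12 with apigenin and by -0.31 to 0.06 with both agents, and none passed. Without apigenin 1 the apigenin changes were 0.25 for LSS, -0.09 for NSDHL, -0.05 for EBP, -0.14 for SC5D and -0.22 for DHCR7.

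In the fatty acid branch FASN was the gene that passed. FASN builds palmitate from malonyl-CoA. Its values were 8.12, 7.98 and 7.67 in control, 7.68, 7.23 and 6.72 with TNF, 6.72 and 7.43 with apigenin, and 7.22, 6.91 and 6.44 with both agents. Every array with apigenin lay below every control, and TNF 1 met the lowest control. In control, with TNF and with both agents FASN fell from replicate 1 to replicate 3, while apigenin 1 lay below apigenin 2. FASN fell with TNF plus apigenin from 7.92 ± 0.23 to 6.85 ± 0.39 (SD, n = 3 each), a log2 change of -1.07 (SE 0.27, 2.1-fold lower, limma adjusted p = 0.0454). TNF alone gave -0.71 (SE 0.27, adjusted p = 0.467) and apigenin alone -0.85 (SE 0.3, adjusted p = 0.131; -0.49, adjusted p = 0.68, without apigenin 1), and neither passed. The FASN call was lost with no filter (adjusted p = 0.074), without control 1 (0.175), 2 (0.112) or 3 (0.067), without TNF 2 (0.0617) and without TNF plus apigenin 2 (0.127) or 3 (0.171), with log2 changes from -1.25 to -0.86.

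ACLY, which makes cytosolic acetyl-CoA from citrate and so feeds both branches, was 8.84, 8.52 and 8.72 in control, 8.55, 8.46 and 8.5 with TNF, 8.04 and 8.41 with apigenin, and 8.17, 8.44 and 8.02 with both agents. Every ACLY array with apigenin lay below every control. The change was -0.47 with apigenin (SE 0.2, adjusted p = 0.2; -0.29 without apigenin 1) and -0.49 with both agents (SE 0.18, adjusted p = 0.176). ACACA, acetyl-CoA carboxylase, which makes malonyl-CoA, changed by -0.19 with TNF (interval -0.68 to 0.3), -0.31 with apigenin (interval -0.85 to 0.23; 0.01 without apigenin 1) and -0.12 with both agents (interval -0.61 to 0.36). ACSS2, which makes acetyl-CoA from acetate, changed by -0.11, 0.1 (0.24 without apigenin 1) and -0.2 in the same comparisons.

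Genes that desaturate, elongate and esterify fatty acids passed no test. SCD, stearoyl-CoA desaturase, was 10.12, 9.92 and 10.11 in control, 10.01, 9.97 and 9.9 with TNF, 10.12 and 10.3 with apigenin, and 10.28, 10.32 and 10.01 with both agents. Its changes were -0.09 (interval -0.44 to 0.25) with TNF, 0.16 (interval -0.22 to 0.55) with apigenin and 0.15 (interval -0.19 to 0.5) with both. FADS2, a desaturase of polyunsaturated fatty acids, was 3.3, 2.54 and 3.33 in control, 3.37, 3.29 and 3.33 with TNF, 3.26 and 3.36 with apigenin, and 3.36, 3.65 and 3.66 with both. Control 2 lay close to the probe set median of 2.53 in FADS2, and the change with both agents of 0.5 (adjusted p = 0.247) was 0.24 without control 2. ELOVL6, an elongase acting after FASN, was 4.26, 3.69 and 4.1 in control, 3.83, 4.45 and 4.11 with TNF, 3.68 and 4 with apigenin, and 4.27, 4.25 and 4.06 with both, and every treated group overlapped with control. GPAM, which starts glycerolipid synthesis, was 4.17, 3.37 and 3.91 in control, 3.47, 4.26 and 3.82 with TNF, 3.35 and 3.6 with apigenin, and 4.14, 4.57 and 3.69 with both. Its arrays with both agents lay above the apigenin arrays (0.66, interval 0.03 to 1.28, adjusted p = 0.298). The lowest of the GPAM arrays with both agents, 3.69, lay close to apigenin 2 at 3.6. Against control GPAM changed by -0.34 with apigenin (interval -0.97 to 0.29) and by -0.22 without apigenin 1.

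Compared with each other, the branches had close medians. With TNF the median log2 change was -0.01 over the 17 sterol genes and -0.1 over the 8 fatty acid genes, against -0.04 over all genes tested. With apigenin it was -0.26 and -0.24, against -0.18. With TNF plus apigenin it was 0 and 0.01 against control, where all genes were at -0.02. The widest gap was for TNF plus apigenin against TNF, at -0.13 and 0.06 (all genes 0.02), a sterol minus fatty acid difference of -0.19. On single arrays, relative to the control mean, that difference was 0.17, 0.11 and -0.01 with TNF. It was -0.08, -0.2 and 0.07 with both agents, so the groups overlapped. The pooled SD of these single-array values within groups was 0.104, which is not the error of a difference between group means. No p is given because the members were chosen with results known.

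Within the branches the genes spread widely. With TNF plus apigenin against control the sterol branch ran from -0.8 (MVK) to 0.73 (HSD17B7), with 8 genes above 0 and 9 below. The fatty acid branch ran from -1.07 (FASN) to 0.5 (FADS2), with 4 genes on each side, and 53.7% of all genes lay below 0. With apigenin 15 of 17 sterol and 5 of 8 fatty acid genes lay below 0, where 72.3% of all genes did. Relative to the median of all genes, 11 sterol and 5 fatty acid genes lay below it. With apigenin added to TNF 12 of 17 sterol genes lay below 0 and 5 of 8 fatty acid genes above it, where 47.6% of all genes lay below.

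**Figure D3:**
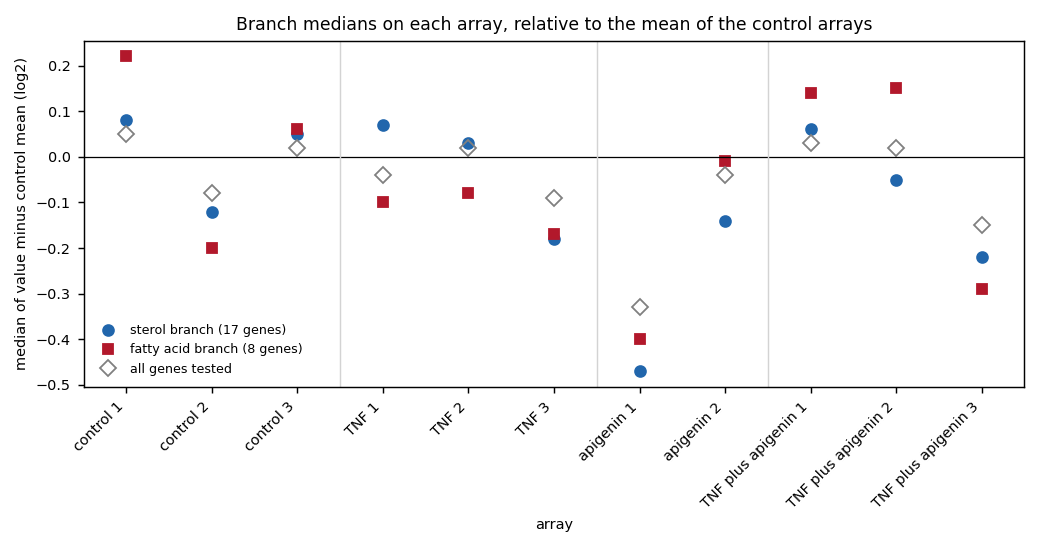
Median over genes of the log2 value minus the control mean (y axis) on each of the 11 arrays (x axis), for the sterol branch (17 genes), the fatty acid branch (8 genes) and all genes tested. The medians were -0.47, -0.4 and -0.33 on apigenin 1, and -0.14, -0.01 and -0.04 on apigenin 2.

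The 2 apigenin arrays differed in most members. Apigenin 1 was lower than apigenin 2 in 27 of 29 members (93.1%) and in 77.1% of all genes tested, with a median difference of -0.31 over both. The widest gaps were INSIG1 (-1.07), LSS (-0.89), FASN (-0.72), STARD4 (-0.69) and ACACA (-0.63). MVK (-0.03), FDPS (-0.02) and MVD (0.02) were nearly equal on both, and SREBF1 was higher on apigenin 1, by 0.3. After quantile normalization the sterol branch median relative to all genes turned from -0.09 to 0.06 for apigenin against control. MVK stayed at -0.77 there (adjusted p = 0.0258).

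**Figure D4:**
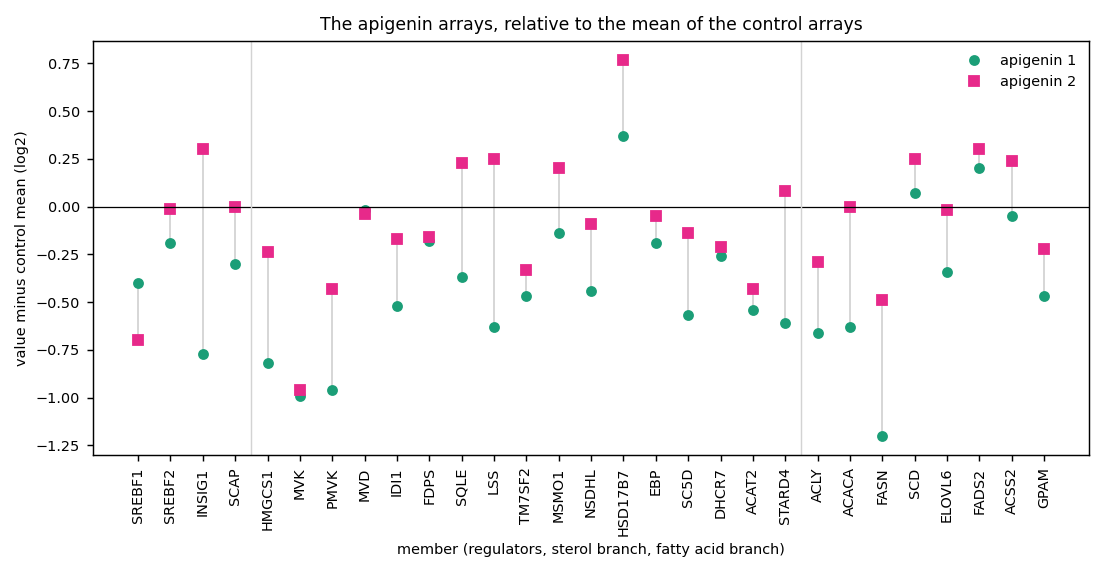
Log2 value minus the control mean (y axis) of the 29 members tested (x axis) on apigenin 1 and apigenin 2, with a line joining the 2 arrays of each gene. The arrays meet at MVK and lie 1.07 apart at INSIG1.

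Genes around the pathway came from 6 lists of 79 genes, 66 of them tested: SREBP processing and turnover, isoprenoid side branches, cholesterol transport and storage, citrate and NADPH supply, fatty acid elongation and glycerolipids, and fatty acid oxidation. For TNF limma called 0 of the 66 (0.7% of all genes), with 2 higher (2.82% of all genes) and 6 lower (4.59%) at an unadjusted p under 0.05. For apigenin it called 1, CYP27A1, as lower (3.44% of all genes were), with 14 lower at an unadjusted p under 0.05 (17.5% of all genes were), 5 of them among the 11 fatty acid oxidation genes tested. For TNF plus apigenin against control it called 1, ELOVL7, as higher (2.82% of all genes were called in either direction), with 3 higher (7.15% of all genes) and 11 lower (8.79%) at an unadjusted p under 0.05. It called 0 for TNF plus apigenin against TNF (4 higher and 4 lower at an unadjusted p under 0.05, where 5.93% and 5.2% of all genes were). It called 0 against apigenin (8 higher at an unadjusted p under 0.05, against 14.1% of all genes) and 0 for the interaction (3 higher, where 8.16% of all genes passed in either direction).

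ELOVL7, an elongase of long-chain fatty acids, was 4.45, 3.66 and 4.54 in control, 4.39, 4.73 and 4.6 with TNF, 4.11 and 4.75 with apigenin, and 5.59, 5.62 and 5.35 with both agents. Its arrays with both agents were higher than all others. ELOVL7 rose by 1.3 on the log2 scale against control (SE 0.24, limma adjusted p = 0.00789). The call held in all 20 alternatives, with changes from 1.02 to 1.46, and control 2 was the lowest array at 3.66. Against TNF (0.94, adjusted p = 0.0771) and against apigenin (1.09, adjusted p = 0.0816) ELOVL7 did not pass, nor did its interaction (0.73, adjusted p = 0.613). CYP27A1, a sterol hydroxylase that makes oxysterols, was 5.83, 5.38 and 5.51 in control, 6.45, 6.01 and 5.61 with TNF, 4.44 and 4.8 with apigenin, and 5.51, 5.51 and 5.09 with both. Its apigenin arrays were lower than all others. CYP27A1 fell with apigenin by 0.96 (SE 0.25, adjusted p = 0.0486), a call lost in 10 of 20 alternatives, 6 of which left out an array: control 1 (-0.83) or 3 (-0.99), TNF 2 (-0.96), apigenin 1 (-0.78, adjusted p = 0.339) or TNF plus apigenin 1 or 2 (both -0.96).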

How the data were processed

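The authors deposited log2 probe set values of 11 arrays, which per the submitters' processing notes came from Affymetrix Expression Console. The software version, the annotation build and how probes were summarised are not given in those notes or the labels. The log base was inferred from the range, 0.38 to 12.31. A platform annotation table listed 25713 of 53617 probe sets, 23871 with 1 symbol and 1842 with several. Of the former, 22569 matched RefSeq and 90 symbols were updated. The probe set with the highest mean stood for each of 632 genes with several.

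Group means of all 11 arrays were fitted with limma 3.58.1 in R 4.3.3 (two-sided, default eBayes, 7 residual degrees of freedom), with Benjamini-Hochberg adjustment over 15865 genes. The fit was tested on simulated data. The small number of arrays (2 or 3 per group) limits the precision. Members and lists were chosen with earlier results of these data known. Values on every array are given for members called, for the 2 highest and 2 lowest of each branch in 3 comparisons, and for all regulators; SQLE and ACAT2 were added after their values were seen. Alternatives were other normalizations, filters, variance models, array weights, fewer groups, a replicate block, probe set means and leaving out each array.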

Additional observations from a re-analysis of the deposited data

How the results depend on the processing

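Limma called 0 members under all alternatives for TNF against control, for TNF plus apigenin against TNF or apigenin, and for the interaction. For apigenin against control the count of 1 became 0 with array weights, 0 with only the groups compared and 2 with the replicate block (FASN, adjusted p = 0.0358, and MVK), and ranged from 0 to 1 when an array was left out (0 without control 1 or apigenin 1). For TNF plus apigenin against control the count of 3 was 4 after quantile normalization, 4 with array weights and 2 with no filter, and ranged from 0 to 3 when an array was left out (0 without control 1, control 2, TNF plus apigenin 2 or TNF plus apigenin 3). Over all genes, limma called 581 for apigenin (84 without apigenin 1 to 1290 without apigenin 2 over the alternatives), 111 for TNF (60 to 221), 447 for TNF plus apigenin against control (206 to 1233), 169 against TNF (85 to 510), 91 against apigenin (16 to 598) and 4 for the interaction (0 to 8). The sterol minus fatty acid difference ranged from -0.13 to 0.07 for apigenin (main value -0.02) and from 0.05 to 0.2 for TNF plus apigenin against apigenin (main value 0.09) when an array was left out. Replicate numbers are shared between groups, and the labels do not say whether they pair the arrays. Of 15 correlations of deviations between arrays of the same number, 4 exceeded 0.1, and all lay between -0.24 and 0.275. Arrays correlated best with their own number in 13 of 30 checks. With 2 or 3 arrays per group these checks cannot exclude a pairing. Of 29 members, 16 kept their sign under all alternatives for TNF, 15 for apigenin and 22 for TNF plus apigenin against control. The causes were not tested. The value 2.53 is the median of the probe set means and not a measured background. Some markers of other cell types lay above it.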
